A study of Mus musculus with 13 samples.

Results

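The ion channels and calcium-handling proteins of the heart were examined as a list of 39 genes in hearts of C10 G58R OMA1+/- mice. Each gene was taken by its symbol in the array annotation, by the brightest transcript cluster of the gene (a transcript cluster is the set of probes for, in most cases, 1 gene). Of the 39 genes, 38 had a cluster, 1 each, among 22206 clusters and 19505 named genes on the array. Scn4a, a sodium channel of skeletal muscle, was not analysed here. The groups were OMA1 ASO2 (3 arrays), OMA1 ASO1 (5 arrays) and CTRL ASO (5 arrays), with 1 Clariom S Mouse array per heart. ASOs are antisense oligomers, short synthetic strands that pair with an RNA and lower its level. The OMA1 ASOs target Oma1, the gene of a protease of the inner mitochondrial membrane, and CTRL ASO is nontargeting. Every mouse, CTRL ASO included, carried the G58R mutation of CHCHD10 (C10), a knock-in at the gene itself and so present in all cells, and OMA1+/-, with 1 functional copy of Oma1. All were 33 weeks old and had been given the ASO weekly under the skin at 50 mg/kg, a route that does not single out the heart. Hearts without the mutation were not analysed here, so each comparison is between treatments of mutant hearts.

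A heartbeat starts as an action potential. Sodium channels and then L-type calcium channels depolarize the cardiomyocyte, potassium channels repolarize it and inward rectifiers hold its resting potential. The calcium that enters opens ryanodine receptors in the sarcoplasmic reticulum, whose stored calcium drives contraction. SERCA2a, held in check by phospholamban, pumps it back, and the sodium-calcium exchanger removes it from the cell. G protein-gated potassium channels carry the current by which the vagus nerve slows the heart and are known mainly from the atria and the sinoatrial node. Pacemaker channels of the HCN family are known mainly from the node and the conduction system.

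Values are the deposited log2 signals, on which a difference of 1 is a doubling of the signal. Signals of different genes come from different probes and are not set against each other. Each array carries 23 groups of probe sets for background, and a signal that exceeded the brightest of them (5.77 to 6.07) was taken as above background. This background was lowest on OMA1 ASO2 replicate 3, at 5.774, against 6.003 to 6.068 on the other 12 arrays, so that a weaker signal counts as above background on that array. Oma1 lay at 3.74 to 5.31 with OMA1 ASO2 and at 4.44 to 5.48 with OMA1 ASO1, below background on all 8 arrays, against 9.13 to 9.83 with CTRL ASO. The ventricular genes Myl2, Myh6 and Tnnt2 were at 19.18 to 19.83 on all 13 arrays. Of 10 atrial markers, 9 were above background on every array, and Myl7, the atrial light chain, was below it on every array. The nodal markers Shox2 and Isl1 were below background throughout. OMA1 ASO1 replicate 1 carried skeletal muscle transcripts, among them Myh4 at 11.95, against 4.20 to 5.38 with OMA1 ASO2 and 4.66 to 5.32 with CTRL ASO. OMA1 ASO1 replicate 5 correlated less with its group, at 0.974 on average, than the other arrays did with theirs (0.984 and above). The labels do not give the sex of the mice. All 3 measured Y-linked genes were below background on 3 OMA1 ASO2, 3 OMA1 ASO1 and 3 CTRL ASO arrays and above it on the other 4, so that no OMA1 ASO2 array carried Y-linked signal, and the comparisons were also run on those 9 arrays alone. RNA was taken from heart tissue, in which fewer cells of a type and less RNA per cell cannot be told apart. The sources do not say which part of the heart was used.

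Differences were fitted to all 22206 clusters with limma and adjusted by the Benjamini-Hochberg method, and an adjusted p under 0.01 counted as called. In OMA1 ASO against CTRL ASO, with both oligomers pooled, 4 of the 38 genes were called (10.5%), against 1.04% of all clusters. Kcnj3, Kcnv2 and Scn4b were higher and Hcn2 was lower. OMA1 ASO1 alone called 3 genes (7.89%, against 0.919% of all clusters), which were Kcnj3 and Kcnv2, higher, and Kcnj12, lower. OMA1 ASO2 alone called 4 (10.5%, against 0.761%), which were Kcnj3, Kcnj12 and Kcnv2, higher, and Slc8a1, lower. Between OMA1 ASO2 and OMA1 ASO1 only Kcnj12 was called (2.63%, against 0.104%). At an adjusted p under 0.05 the counts were 4 genes in the pooled comparison (2.28% of all clusters), 5 with OMA1 ASO1 (1.86%), 6 with OMA1 ASO2 (1.6%) and 4 between the oligomers (0.23%). These comparisons share arrays and do not count as separate evidence. The list was drawn up with results of these arrays known, Kcnj12 and Scn4b among them, so its shares describe the list and are no test of it.

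**Figure D1:**
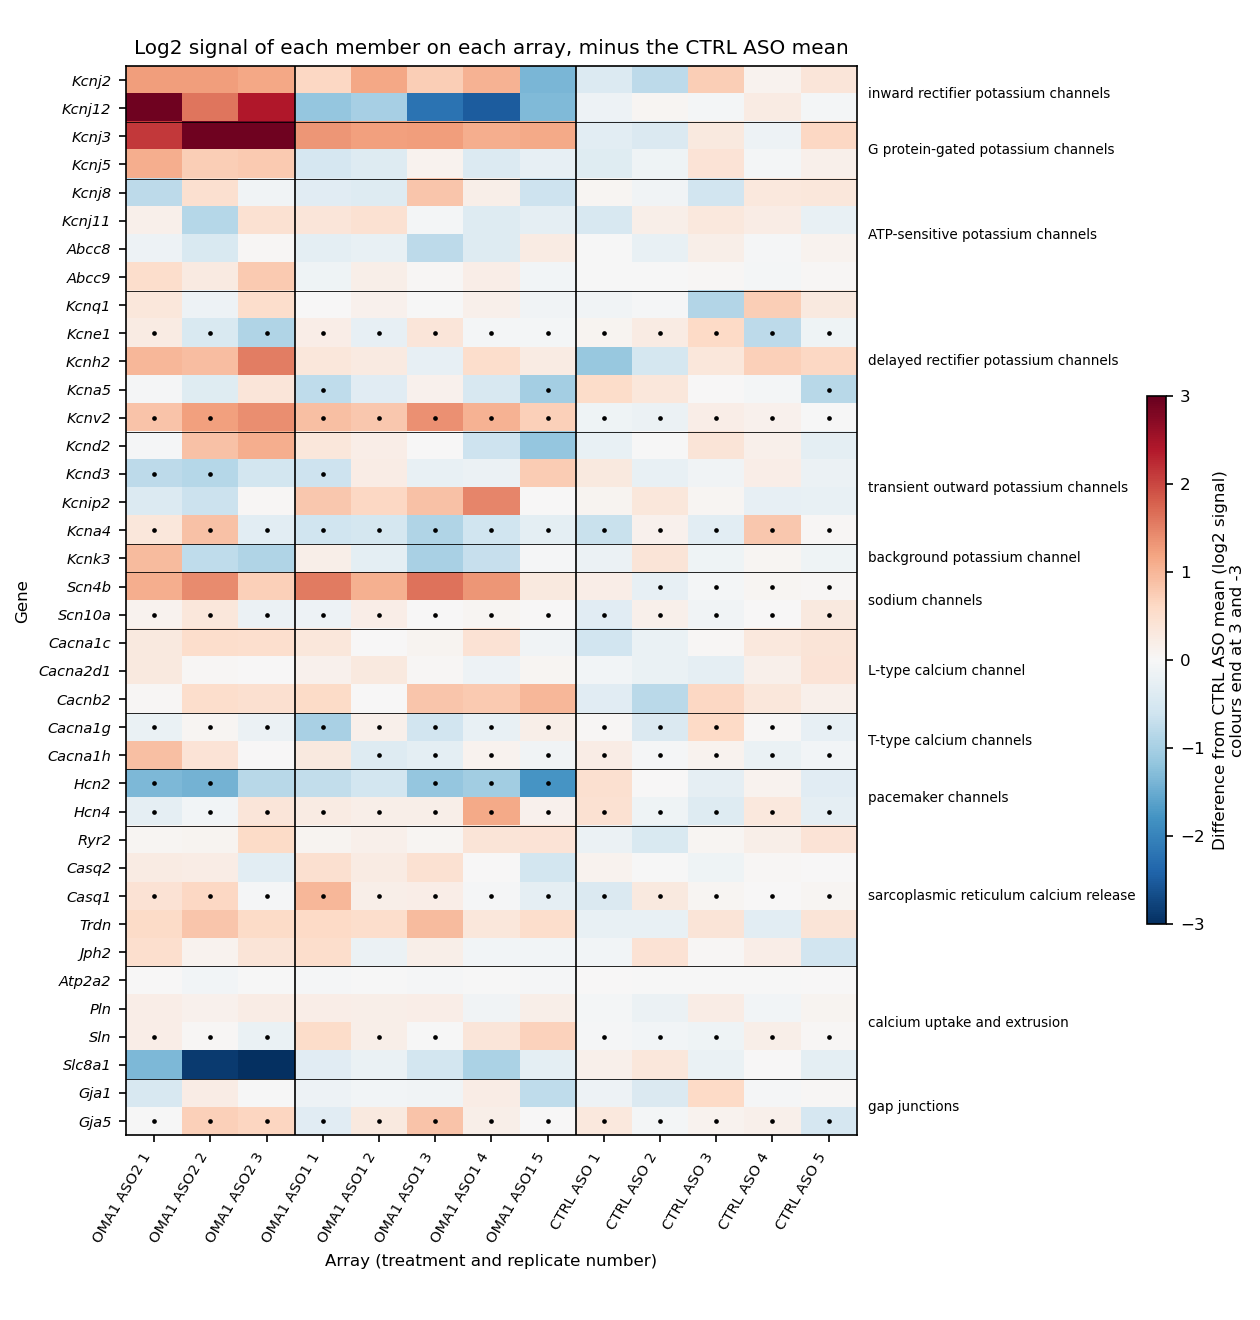
Log2 signal of each of the 38 genes on each of the 13 arrays, minus the mean of the gene over the 5 CTRL ASO arrays (colour, which stops at 3 in either direction); rows are genes grouped by role and columns are OMA1 ASO2, OMA1 ASO1 and CTRL ASO arrays. Most rows are pale, Kcnj12 changes colour between the oligomers, Kcnj3 is raised on all 8 OMA1 ASO arrays and Slc8a1 is lowered on the 3 OMA1 ASO2 arrays.

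The median log2 difference over the 38 genes was 0.11 in the pooled comparison (0.01 over all clusters), 0.21 with OMA1 ASO2 (0.01) and 0.04 with OMA1 ASO1 (0.01). The median size of the difference, without its sign, was 0.34 with OMA1 ASO2 for the 38 genes and 0.21 over all clusters, and 0.24 with OMA1 ASO1 for the 38 genes and 0.18 over all clusters. Of the 38, 24 were above background on all 13 arrays, 7 on some arrays and 7 on none. For these 24 genes the median size with OMA1 ASO2 was 0.34, against 0.24 over the 8095 clusters above background on all arrays. It was 0.22 against 0.21 with OMA1 ASO1 and 0.19 against 0.20 in the pooled comparison.

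The genes that separated the OMA1 ASOs from each other at an adjusted p under 0.05 were Kcnj12, Kcnj3 and Kcnj5, which were higher with OMA1 ASO2 than with OMA1 ASO1, and Slc8a1, which was lower. The differences of Kcnj3, Kcnj5 and Slc8a1 were no longer under 0.05 when certain single arrays were left out, as given with their values. The promoters are shown because these 4 genes are those for which the oligomers differed in that fit. The sequences are the 250 bases before the RefSeq start in GRCm38.p6, read 5′ to 3′ on the strand of the gene, at chr11:61065554-61065803 (+ strand), chr2:55435720-55435969 (+ strand), chr9:32344345-32344594 (- strand) and chr17:81738388-81738637 (- strand). Capitals mark matches to any of the 7 motifs searched.
Kcnj12: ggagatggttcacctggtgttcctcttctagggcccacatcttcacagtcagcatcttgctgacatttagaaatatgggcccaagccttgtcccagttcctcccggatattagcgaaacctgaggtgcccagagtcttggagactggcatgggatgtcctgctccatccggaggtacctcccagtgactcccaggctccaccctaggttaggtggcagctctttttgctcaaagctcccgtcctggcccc
Kcnj3: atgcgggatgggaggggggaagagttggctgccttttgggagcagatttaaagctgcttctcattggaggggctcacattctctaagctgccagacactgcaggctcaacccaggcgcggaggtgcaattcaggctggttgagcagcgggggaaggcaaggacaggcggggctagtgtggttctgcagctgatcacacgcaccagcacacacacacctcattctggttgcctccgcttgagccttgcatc
Kcnj5: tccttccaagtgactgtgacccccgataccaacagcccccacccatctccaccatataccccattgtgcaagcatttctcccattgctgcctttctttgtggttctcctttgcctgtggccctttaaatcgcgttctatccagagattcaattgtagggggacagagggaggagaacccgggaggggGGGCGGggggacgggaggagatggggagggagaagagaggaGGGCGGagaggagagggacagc
Slc8a1: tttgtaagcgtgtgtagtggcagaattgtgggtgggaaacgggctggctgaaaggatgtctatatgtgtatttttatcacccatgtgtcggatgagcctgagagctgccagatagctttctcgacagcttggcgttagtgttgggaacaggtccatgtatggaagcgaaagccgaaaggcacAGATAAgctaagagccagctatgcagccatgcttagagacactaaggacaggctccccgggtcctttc

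Motifs were searched on both strands in the 250 bases before each of 32851 RefSeq starts, of which 28 of the 39 genes had at least 1. The C/EBP-ATF response element TGATGNAA was in 3.45% of all promoters, the cAMP response element TGACGTCA in 1.55%, the MEF2 site (CTA and TAG with 4 bases of any kind between them) in 3.2%, the ERR element TCAAGGTCA in 0.387%, the GATA site AGATAA in 9.99%, the TATA box TATAAA in 12.4% and the GC box GGGCGG in 32.7%. Kcnj12 and Kcnj3 held none of these letters in this window. Slc8a1 held 1 GATA match, 68 to 63 bases before its start, and Kcnj5 held 2 GC box matches, 63 to 58 and 22 to 17 bases before its start. None of the matches overlapped another. The 4 promoters shared no motif. Over the 28 genes, 15 held a GC box, 3 a GATA site, 1 each a C/EBP-ATF element, an ERR element and a TATA box, and 0 a cAMP element or a MEF2 site. These counts are by gene, while the shares above are by promoter. By promoter, 16 of the 32 of these genes held a GC box and 3 a GATA site.

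Kcnj12 and Kcnj2 encode Kir2.2 and Kir2.1, the strong inward rectifiers that set the resting potential of ventricular cells. Kcnj12 moved in opposite directions with the oligomers. Its log2 signal was 11.58, 10.27 and 11.07 on the OMA1 ASO2 arrays, 7.50, 7.67, 6.45, 6.18 and 7.35 on the OMA1 ASO1 arrays, and 8.50, 8.71, 8.60, 8.90 and 8.59 on the CTRL ASO arrays. The 3 treatments did not overlap, with all OMA1 ASO2 arrays above and all OMA1 ASO1 arrays below the narrow band of CTRL ASO. Kcnj12 was 4.96-fold higher with OMA1 ASO2 than with CTRL ASO (log2 2.31, 95% interval 1.61 to 3.02, adjusted p = 0.000917 from limma) and 3.10-fold lower with OMA1 ASO1 (log2 -1.63, -2.24 to -1.02, adjusted p = 0.00469). OMA1 ASO2 over OMA1 ASO1 was 15.4-fold (log2 3.94, 3.24 to 4.65, adjusted p = 2.2e-05), and 3.64 to 4.29 on the log2 scale without any 1 array. This difference was known from these arrays when the gene was chosen, so its p-values are no separate test. Pooling the oligomers left a log2 difference of -0.15 (adjusted p = 0.97). On the 9 arrays without Y-linked signal the difference between the oligomers was 4.26 (adjusted p = 0.000181). The call with OMA1 ASO1 was lost there (log2 -1.92, adjusted p = 0.0167), and also when any of the 5 CTRL ASO arrays or either of OMA1 ASO1 replicates 3 and 4 was left out (log2 -1.67 to -1.42, adjusted p = 0.0117 to 0.0182), and that with OMA1 ASO2 without OMA1 ASO2 replicate 1 (log2 2.01, adjusted p = 0.0106).

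Kcnj2 was not called in any comparison. Its signal was 10.37, 10.36 and 10.28 with OMA1 ASO2, 9.75, 10.29, 9.86, 10.16 and 7.74 with OMA1 ASO1, and 8.71, 8.33, 9.85, 9.22 and 9.49 with CTRL ASO. The OMA1 ASO2 arrays all lay above the CTRL ASO arrays, and the low value with OMA1 ASO1 was from replicate 5, the array that correlated least with its group. On that array the 9 endothelial markers summed to 16.63, against 17.97 to 18.33 on the other OMA1 ASO1 arrays, with 8 of 9 above background, and the 9 macrophage markers to 10.72, against 12.41 to 13.19, with 4 of 9 above background. Their part in the Kcnj2 value, and in the other results given without replicate 5, was not tested. The log2 difference was 1.21 with OMA1 ASO2 (95% interval 0.24 to 2.19, adjusted p = 0.275) and 0.44 with OMA1 ASO1 (-0.40 to 1.28, adjusted p = 0.746). Without OMA1 ASO1 replicate 5 these were 1.21 (adjusted p = 0.0257) and 0.90 (adjusted p = 0.0803), and the pooled difference was 1.03 (adjusted p = 0.016). Without that array, clusters called over the whole array rose from 169 to 269 with OMA1 ASO2 and from 204 to 286 with OMA1 ASO1. They rose from 230 to 317 in the pooled comparison and from 23 to 38 between the oligomers. A lower adjusted p without it is therefore not particular to Kcnj2. Between the oligomers Kcnj2 differed by 0.77 (-0.20 to 1.75, adjusted p = 0.736).

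**Figure D2:**
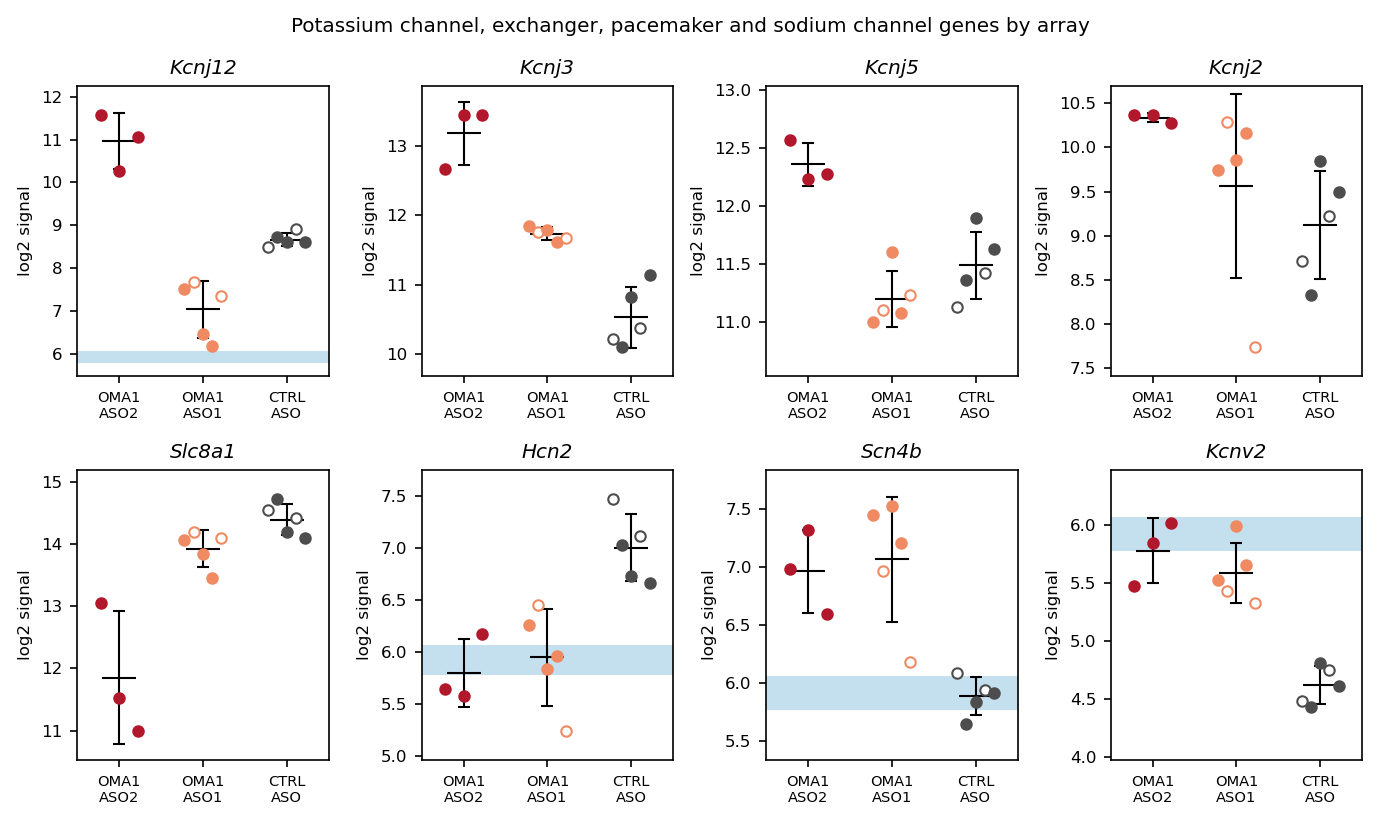
Log2 signal of 8 genes on each array (points) for OMA1 ASO2, OMA1 ASO1 and CTRL ASO, with group means as lines and SD as bars; open points are arrays with Y-linked signal and the blue band is the range of background over the arrays. Kcnj12 separates into 3 levels, Kcnj3 is lowest with CTRL ASO and highest with OMA1 ASO2, Slc8a1 is low with OMA1 ASO2, and Scn4b, Hcn2 and Kcnv2 lie at or near background in at least 1 treatment.

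Kcnj3 and Kcnj5 encode GIRK1 and GIRK4, the subunits that together form the G protein-gated channel. Kcnj3 was higher with either oligomer. Its log2 signal was 12.66, 13.44 and 13.45 with OMA1 ASO2, 11.85, 11.76, 11.78, 11.62 and 11.68 with OMA1 ASO1, and 10.22, 10.11, 10.82, 10.37 and 11.15 with CTRL ASO. No treatment overlapped another, and the OMA1 ASO1 arrays lay between the other two. Kcnj3 was 6.28-fold higher with OMA1 ASO2 than with CTRL ASO (log2 2.65, 95% interval 2.13 to 3.17, adjusted p = 8.03e-06 from limma) and 2.30-fold higher with OMA1 ASO1 (log2 1.20, 0.75 to 1.66, adjusted p = 0.00481). The pooled difference was 1.75 (adjusted p = 0.00653). OMA1 ASO2 over OMA1 ASO1 was 2.73-fold (log2 1.45, 0.92 to 1.97, adjusted p = 0.0153), under 0.05 but not under 0.01, and was above 0.05 without OMA1 ASO2 replicate 2 (1.32, adjusted p = 0.141) or replicate 3 (1.32, adjusted p = 0.119), with the Y-linked genes as a covariate (1.35, adjusted p = 0.0531) and on the 9 arrays (1.43, adjusted p = 0.0757). The difference with OMA1 ASO2 was called without any 1 array (log2 2.52 to 2.91) and on the 9 arrays without Y-linked signal (2.49, adjusted p = 0.000457). The call with OMA1 ASO1 was lost on those 9 arrays (log2 1.06, adjusted p = 0.141), and also when any of CTRL ASO replicates 1, 2 and 4 or OMA1 ASO1 replicates 1 to 4 was left out (1.10 to 1.23, adjusted p = 0.0119 to 0.0197). The pooled call went when any of CTRL ASO replicates 1 to 4 or OMA1 ASO2 replicate 1 was left out (1.64 to 1.82, adjusted p = 0.0131 to 0.0312), on the 9 arrays (1.78, adjusted p = 0.0594) and with a mean-variance trend and robust fitting (adjusted p = 0.0105). As an equal-weight mean of both oligomers, where their difference is not counted as spread, it was 1.93 (adjusted p = 1.4e-05).

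Kcnj5 was at 12.57, 12.23 and 12.28 with OMA1 ASO2, 11.00, 11.10, 11.61, 11.08 and 11.23 with OMA1 ASO1, and 11.13, 11.36, 11.90, 11.43 and 11.63 with CTRL ASO. The OMA1 ASO2 arrays were above all others, while OMA1 ASO1 and CTRL ASO overlapped. The log2 difference of OMA1 ASO2 was 1.16 from OMA1 ASO1 (95% interval 0.72 to 1.60, adjusted p = 0.0196 from limma) and 0.87 from CTRL ASO (0.44 to 1.31, adjusted p = 0.0417), neither under 0.01. On the 9 arrays without Y-linked signal these were 1.13 (adjusted p = 0.0883) and 0.73 (adjusted p = 0.248). The difference from CTRL ASO was 0.77 to 0.97 without any 1 array (adjusted p = 0.0231 to 0.185), so it was not always under 0.05. The difference between the oligomers was also above 0.05 without any 1 of the OMA1 ASO2 arrays (1.05 to 1.22, adjusted p = 0.0813 to 0.136), without OMA1 ASO1 replicate 1, 2 or 4 (1.11 to 1.13, adjusted p = 0.0523 to 0.0626), with the Y-linked genes as a covariate (1.07, adjusted p = 0.071) and with only the groups compared (adjusted p = 0.0872). Whether Kcnj3 and Kcnj5 differed from each other in their response was not tested.

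Since GIRK subunits are best known from the atria, the atrial marker list was read beside them. Summed over the 10 markers, its log2 signal was 18.26 to 19.26 with OMA1 ASO2, 18.03 to 19.36 with OMA1 ASO1 and 17.34 to 19.42 with CTRL ASO, with 9 of 10 markers above background on every array and the defining marker Myl7 below it on all. Nppa, the gene of atrial natriuretic peptide, which ventricles also make under stress, was at 16.68 to 18.52 with OMA1 ASO2, 16.39 to 18.82 with OMA1 ASO1 and 13.75 to 18.68 with CTRL ASO. Bmp10, a growth factor gene of the atria, was the 1 of these 10 markers called with OMA1 ASO1, against 0.919% of all clusters. It was lower (log2 -4.59, adjusted p = 0.00482 from limma), at 6.61 to 10.45, against 10.22 to 14.56 with CTRL ASO, and was 9.86 to 12.32 with OMA1 ASO2. The median log2 difference of the 10 markers from CTRL ASO was 0.22 with OMA1 ASO2 and -0.25 with OMA1 ASO1 (0.01 over all clusters for each). Between the oligomers it was 0.32 (-0.01 over all clusters). The part of atrial tissue in the Kcnj3 and Kcnj5 differences was not tested.

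The 4 genes of the ATP-sensitive potassium channels, which open when cellular ATP falls, were not called. They are the pore genes Kcnj8 and Kcnj11 and the sulfonylurea receptor genes Abcc8 and Abcc9. Their log2 differences from CTRL ASO were between -0.19 and 0.52 with OMA1 ASO2 and between -0.29 and 0.04 with OMA1 ASO1. Abcc9 was the highest of these with OMA1 ASO2, at 0.52 (95% interval 0.16 to 0.89, adjusted p = 0.188 from limma). It was at 15.45, 15.18 and 15.69 with OMA1 ASO2, 14.78 to 15.12 with OMA1 ASO1 and 14.86 to 14.96 with CTRL ASO, so that its OMA1 ASO2 arrays lay above all others. Kcnj8 and Abcc9 are also genes of smooth muscle and pericytes, whose 10 markers summed to 13.51 to 13.89 with OMA1 ASO2, 14.12 to 14.53 with OMA1 ASO1 and 14.22 to 15.60 with CTRL ASO, lowest with OMA1 ASO2, with 7 of 10 above background on the OMA1 ASO2 arrays and Cnn1, Notch3 and Higd1b below it throughout. Their part in the Abcc9 values was not tested.

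Among the repolarizing channels, Kcnq1 (the slow delayed rectifier) averaged 7.37 ± 0.34 with OMA1 ASO2, 7.17 ± 0.10 with OMA1 ASO1 and 7.14 ± 0.60 with CTRL ASO (SD, n = 3, 5 and 5), and its partner subunit Kcne1 was below background on all 13 arrays. Kcnh2, the ERG channel of the rapid delayed rectifier, averaged 12.17 ± 0.33 with OMA1 ASO2, 11.25 ± 0.28 with OMA1 ASO1 and 11.02 ± 0.80 with CTRL ASO. Its OMA1 ASO2 arrays (11.95 to 12.56) lay above all the others, yet the log2 difference from CTRL ASO of 1.15 (95% interval 0.41 to 1.90) had an adjusted p of 0.143. Kcna5, the ultrarapid channel Kv1.5, averaged 6.65 ± 0.36 with OMA1 ASO2, 6.17 ± 0.43 with OMA1 ASO1 and 6.66 ± 0.53 with CTRL ASO, and was above background on 10 of 13 arrays. Kcnk3, the background channel TASK-1, averaged 8.35 ± 1.04 with OMA1 ASO2, 8.22 ± 0.47 with OMA1 ASO1 and 8.59 ± 0.23 with CTRL ASO. None of these was called.

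Kcnv2, a silent subunit that forms channels only together with others, was called in all 3 comparisons with CTRL ASO although it stayed near background. It was at 5.47, 5.85 and 6.01 with OMA1 ASO2, 5.53, 5.43, 5.99, 5.65 and 5.33 with OMA1 ASO1, and 4.48, 4.43, 4.81, 4.75 and 4.61 with CTRL ASO. All 8 OMA1 ASO arrays were above all 5 CTRL ASO arrays, but just 1 array, OMA1 ASO2 replicate 3, was above its background, the lowest of all arrays. The fitted pooled log2 difference was 1.04 (95% interval 0.71 to 1.37, adjusted p = 0.000691 from limma), with 1.16 for OMA1 ASO2 (adjusted p = 0.00425) and 0.97 for OMA1 ASO1 (adjusted p = 0.00463). No fold is given, as nearly all values lie where the probes are not well above background. The pooled difference was called without any 1 array and on the 9 arrays without Y-linked signal (1.13, adjusted p = 0.00876), where those of OMA1 ASO2 (1.16, adjusted p = 0.0266) and OMA1 ASO1 (1.11, adjusted p = 0.0373) were not. The call of OMA1 ASO2 was also lost with the Y-linked genes as a covariate (1.08, adjusted p = 0.0201). The calls of the single oligomers were each lost without 1 of several arrays: that of OMA1 ASO1 with any of CTRL ASO replicates 1, 2, 4 and 5 or OMA1 ASO1 replicates 1, 3 and 4 left out (log2 0.87 to 1.00, adjusted p = 0.0105 to 0.0196), and that of OMA1 ASO2 with any of CTRL ASO replicates 1, 2 and 5 or OMA1 ASO2 replicates 2 and 3 left out (1.04 to 1.16, adjusted p = 0.010 to 0.0346).

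The transient outward current of mouse ventricle is carried by Kv4.2 (Kcnd2) and Kv4.3 (Kcnd3) with the auxiliary subunit KChIP2 (Kcnip2), and by Kv1.4 (Kcna4). None of the 4 genes was called. Kcnip2 was at 13.07, 12.83 and 13.51 with OMA1 ASO2, 14.28, 14.11, 14.35, 14.94 and 13.49 with OMA1 ASO1, and 13.57, 13.82, 13.54, 13.23 and 13.25 with CTRL ASO. OMA1 ASO1 arrays other than replicate 5 lay above every array of the other treatments. The difference between the oligomers was -1.10 (95% interval -1.67 to -0.53, adjusted p = 0.159 from limma), and -1.29 without OMA1 ASO1 replicate 5 (adjusted p = 0.0195), with 0.94 for OMA1 ASO1 against CTRL ASO (adjusted p = 0.0197). Calls over all clusters also rose without replicate 5, as given with Kcnj2. Kcnd2, the main pore, averaged 9.91 ± 0.60 with OMA1 ASO2, 9.02 ± 0.64 with OMA1 ASO1 and 9.26 ± 0.27 with CTRL ASO (SD, n = 3, 5 and 5). Kcnd3 averaged 5.67 ± 0.17 with OMA1 ASO2, 6.40 ± 0.52 with OMA1 ASO1 and 6.40 ± 0.23 with CTRL ASO and was above background on 1 of 3 OMA1 ASO2 (replicate 3, by its lower background), 4 of 5 OMA1 ASO1 and 5 of 5 CTRL ASO arrays. Kcna4 was below background on all 13 arrays.

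**Figure D3:**
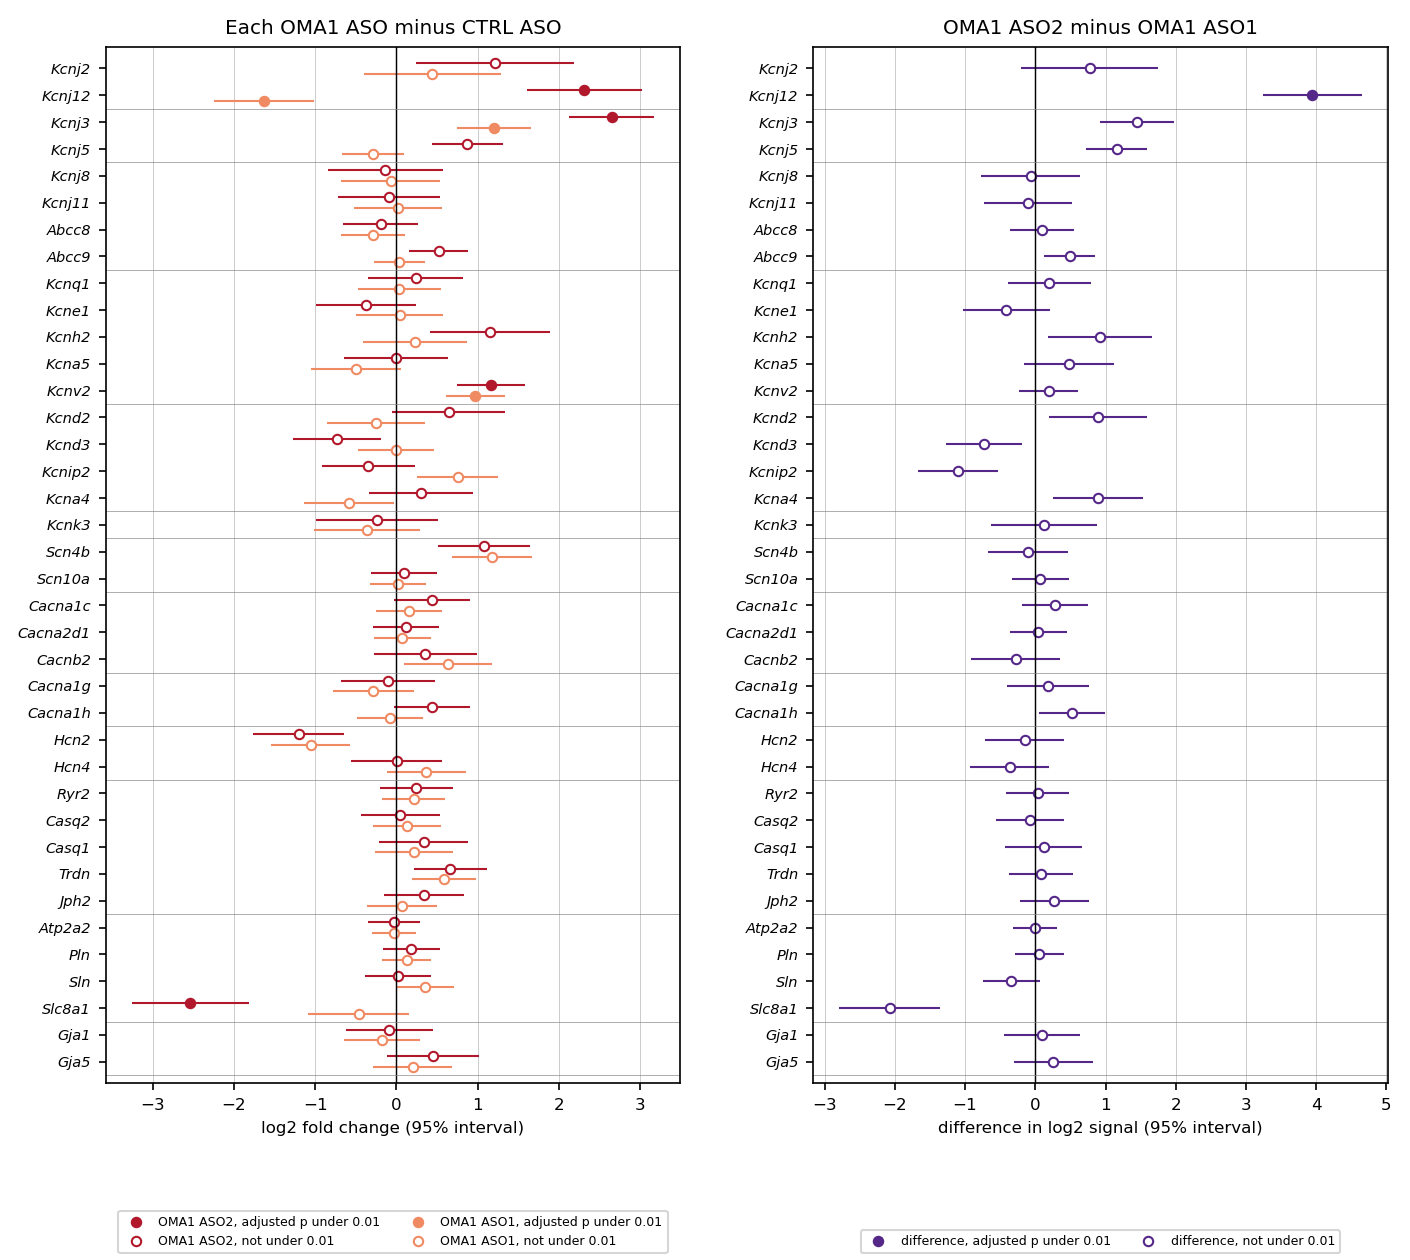
Log2 difference of each of the 38 genes with its 95% interval from limma for OMA1 ASO2 and OMA1 ASO1, each against CTRL ASO (left), and for OMA1 ASO2 against OMA1 ASO1 (right), by role; filled points have an adjusted p under 0.01. The intervals of most genes cross 0, those of Kcnj12 against CTRL ASO lie on opposite sides of it, and Kcnj12 is the only filled point on the right.

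Scn4b encodes the beta4 subunit that modulates the cardiac sodium channel. It was at 6.98, 7.32 and 6.60 with OMA1 ASO2, 7.45, 6.97, 7.53, 7.21 and 6.19 with OMA1 ASO1, and 6.09, 5.65, 5.84, 5.94 and 5.92 with CTRL ASO. All 8 OMA1 ASO arrays were above background and above every CTRL ASO array, of which 1 of 5 exceeded background, so the size of the difference is uncertain. The fitted pooled log2 difference was 1.14 (95% interval 0.71 to 1.57, adjusted p = 0.00416 from limma), with 1.08 for OMA1 ASO2 (adjusted p = 0.0555) and 1.18 for OMA1 ASO1 (adjusted p = 0.0107). It held on the 9 arrays without Y-linked signal (1.38, adjusted p = 0.00511) and was lost when any of CTRL ASO replicates 2 to 5 was left out (1.08 to 1.16, adjusted p = 0.0116 to 0.0206). Without OMA1 ASO1 replicate 5, which has the lowest value among the OMA1 ASO arrays, it was 1.26 (adjusted p = 0.000216), and both oligomers were then called alone, OMA1 ASO2 at 1.08 (adjusted p = 0.00651) and OMA1 ASO1 at 1.40 (adjusted p = 0.00025). Calls over all clusters also rose without replicate 5, as given with Kcnj2. With all arrays, the oligomers differed by -0.10 (95% interval -0.67 to 0.46). Scn10a, a sodium channel of sensory neurons, was below background on all 13 arrays.

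Hcn2, a pacemaker channel of ventricular and conduction cells, was the 1 gene of the list called lower in the pooled comparison. It was at 5.64, 5.58 and 6.17 with OMA1 ASO2, 6.26, 6.45, 5.83, 5.96 and 5.24 with OMA1 ASO1, and 7.47, 7.03, 6.73, 7.11 and 6.66 with CTRL ASO. Every OMA1 ASO array was below every CTRL ASO array, and 3 of 8 OMA1 ASO arrays were above background, against 5 of 5 CTRL ASO arrays, so the size of the difference is uncertain. The fitted pooled log2 difference was -1.11 (95% interval -1.54 to -0.68, adjusted p = 0.00524 from limma), with -1.20 for OMA1 ASO2 (adjusted p = 0.028) and -1.05 for OMA1 ASO1 (adjusted p = 0.0228). The pooled call was lost on the 9 arrays without Y-linked signal (-0.90, adjusted p = 0.0534) and with the mean of the Y-linked genes as a covariate (-1.07, adjusted p = 0.010), and also when any of CTRL ASO replicates 1, 2 and 4, OMA1 ASO1 replicates 3 and 4 or OMA1 ASO2 replicates 1 and 2 was left out (-1.12 to -0.99, adjusted p = 0.0101 to 0.0243).

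Hcn4, the main channel of the sinoatrial node, was below background on all 13 arrays, at 4.44 to 5.05 with OMA1 ASO2, 4.82 to 5.82 with OMA1 ASO1 and 4.31 to 5.15 with CTRL ASO. The 10 sinoatrial and conduction markers summed to 11.13 to 12.45 with OMA1 ASO2, 10.89 to 12.18 with OMA1 ASO1 and 11.07 to 12.81 with CTRL ASO, overlapping throughout, with 2 to 4 of 10 above background on each array. Hcn2 is also a neuronal gene. The 8 measured neuron and Schwann cell markers summed to 8.87 to 9.65 with OMA1 ASO2, 8.74 to 10.55 with OMA1 ASO1 and 9.55 to 10.12 with CTRL ASO, with 1 to 3 of 8 above background. Their median pooled log2 difference was 0.03 (0.01 over all clusters), 2 of 8 were called lower (1.04% of all clusters were called) and 5 of 8 were below background on all arrays. Uchl1, 1 of the 2, was lower in the pooled comparison (log2 -2.33, adjusted p = 0.000121 from limma), at 5.31 to 5.93 with OMA1 ASO2, 5.39 to 7.21 with OMA1 ASO1 and 7.78 to 9.24 with CTRL ASO. Th, Dbh and Sox10 were below background on all arrays. The part of these cells in the Hcn2 difference was not tested.

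None of the genes of calcium entry was called. Cacna1c, the pore of the L-type channel, averaged 15.07 ± 0.13 with OMA1 ASO2, 14.79 ± 0.23 with OMA1 ASO1 and 14.63 ± 0.39 with CTRL ASO (SD, n = 3, 5 and 5). The log2 differences from CTRL ASO of this gene and of the auxiliary subunit genes Cacnb2 and Cacna2d1 were between 0.12 and 0.44 with OMA1 ASO2 and between 0.07 and 0.64 with OMA1 ASO1. Cacnb2 was the highest of these with OMA1 ASO1, at 0.64 (95% interval 0.09 to 1.18, adjusted p = 0.311 from limma). Of the T-type channel genes, Cacna1g was below background on all arrays and Cacna1h was above it on 3 of 3 OMA1 ASO2, 1 of 5 OMA1 ASO1 and 0 of 5 CTRL ASO arrays, at 5.81 to 6.69 with OMA1 ASO2, 5.40 to 6.08 with OMA1 ASO1 and 5.58 to 6.01 with CTRL ASO. The 5.81 was on OMA1 ASO2 replicate 3 and passed only its lower background.

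Slc8a1 encodes NCX1, the sodium-calcium exchanger, which removes calcium from the cardiomyocyte between beats. It was lower with OMA1 ASO2, at 13.05, 11.52 and 10.99, while it was at 14.06, 14.19, 13.83, 13.45 and 14.10 with OMA1 ASO1 and at 14.54, 14.72, 14.19, 14.41 and 14.09 with CTRL ASO. All OMA1 ASO2 arrays were below all others but spread widely, from 10.99 to 13.05, with replicate 1 nearest to the other treatments, and OMA1 ASO1 overlapped CTRL ASO. Slc8a1 was 5.81-fold lower with OMA1 ASO2 than with CTRL ASO (log2 -2.54, 95% interval -3.26 to -1.82, adjusted p = 0.000419 from limma), and the call held without any 1 array (-3.13 to -2.11) and on the 9 arrays without Y-linked signal (-2.48, adjusted p = 0.00723). With OMA1 ASO1 the difference was -0.47 (-1.09 to 0.16, adjusted p = 0.591). OMA1 ASO2 was lower than OMA1 ASO1 by 2.07 on the log2 scale (adjusted p = 0.0113), just short of the threshold. That difference was -2.67 without OMA1 ASO2 replicate 1 (adjusted p = 0.000258), -1.91 without OMA1 ASO2 replicate 2 (adjusted p = 0.109), -1.64 without OMA1 ASO2 replicate 3 (adjusted p = 0.087) and -1.93 on the 9 arrays (adjusted p = 0.0886). The sum of the smooth muscle and pericyte markers given above was also lowest with OMA1 ASO2. The median log2 difference of these 10 markers with OMA1 ASO2 was -0.26 from CTRL ASO and -0.49 from OMA1 ASO1 (0.01 and -0.01 over all clusters). In either comparison 0 were called. Against CTRL ASO, 1 of the 10 was lower at an adjusted p under 0.05 (1.6% of all clusters passed). Their part in the Slc8a1 values was not tested.

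**Figure D4:**
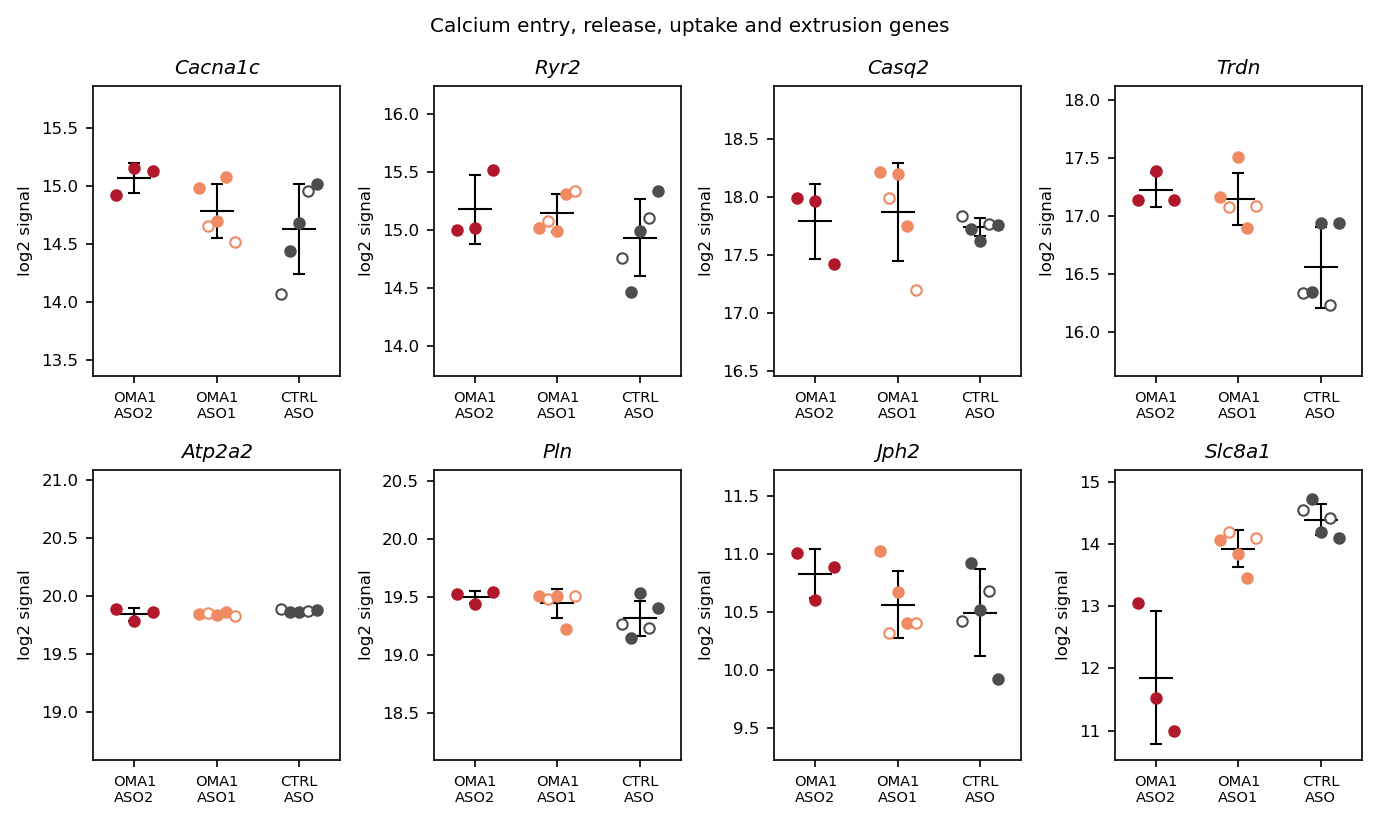
Log2 signal of 8 genes of calcium entry, release, uptake and extrusion on each array (points) for OMA1 ASO2, OMA1 ASO1 and CTRL ASO, with group means as lines and SD as bars; open points are arrays with Y-linked signal. Slc8a1 is low with OMA1 ASO2, and OMA1 ASO1 and CTRL ASO overlap for all 8 genes.

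None of the genes of calcium release and reuptake was called. Atp2a2, which encodes SERCA2a, averaged 19.84 ± 0.06 with OMA1 ASO2, 19.84 ± 0.01 with OMA1 ASO1 and 19.87 ± 0.01 with CTRL ASO. It lay within 0.0453 of the brightest cluster on every array, near the top of the measured range, where a rise may not show. Pln, phospholamban, averaged 19.50 ± 0.05 with OMA1 ASO2, 19.45 ± 0.13 with OMA1 ASO1 and 19.32 ± 0.15 with CTRL ASO. Ryr2, the release channel, averaged 15.18 ± 0.29 with OMA1 ASO2, 15.15 ± 0.16 with OMA1 ASO1 and 14.93 ± 0.33 with CTRL ASO. Casq2, the calcium buffer of the store, averaged 17.79 ± 0.32 with OMA1 ASO2, 17.87 ± 0.42 with OMA1 ASO1 and 17.75 ± 0.08 with CTRL ASO (SD, n = 3, 5 and 5). For these 4 genes no 95% interval of the difference from CTRL ASO, with either oligomer, reached past 0.70 on the log2 scale. Pln also lay near the top of the range, 0.32 to 0.76 below the brightest cluster of the array. For Atp2a2 and Pln the intervals may therefore miss a rise. Jph2, which ties the store to the cell membrane, averaged 10.83 ± 0.21 with OMA1 ASO2, 10.56 ± 0.29 with OMA1 ASO1 and 10.49 ± 0.37 with CTRL ASO.

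Trdn, triadin, which anchors calsequestrin to the ryanodine receptor, was at 17.14, 17.39 and 17.14 with OMA1 ASO2, 17.16, 17.07, 17.50, 16.89 and 17.09 with OMA1 ASO1, and 16.34, 16.34, 16.93, 16.23 and 16.94 with CTRL ASO. The highest CTRL ASO arrays overlapped the lowest OMA1 ASO1 array. The pooled log2 difference of 0.62 (95% interval 0.27 to 0.96) had an adjusted p of 0.0603 in limma. Sln, the atrial SERCA inhibitor sarcolipin, was above background on 3 of 5 OMA1 ASO1 arrays and on none of the other treatments, at 5.62 to 6.01 with OMA1 ASO2, 5.80 to 6.51 with OMA1 ASO1 and 5.70 to 5.99 with CTRL ASO. Casq1, the skeletal muscle calsequestrin, was below background on all arrays, and its highest value, 5.09, was on OMA1 ASO1 replicate 1, the array with skeletal muscle transcripts.

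Gja1, connexin 43, the gap junction protein of ventricular muscle, averaged 16.36 ± 0.35 with OMA1 ASO2, 16.26 ± 0.36 with OMA1 ASO1 and 16.44 ± 0.37 with CTRL ASO (SD, n = 3, 5 and 5). Gja5, connexin 40 of the atria and conduction system, was below background on all arrays.

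**Figure D5:**
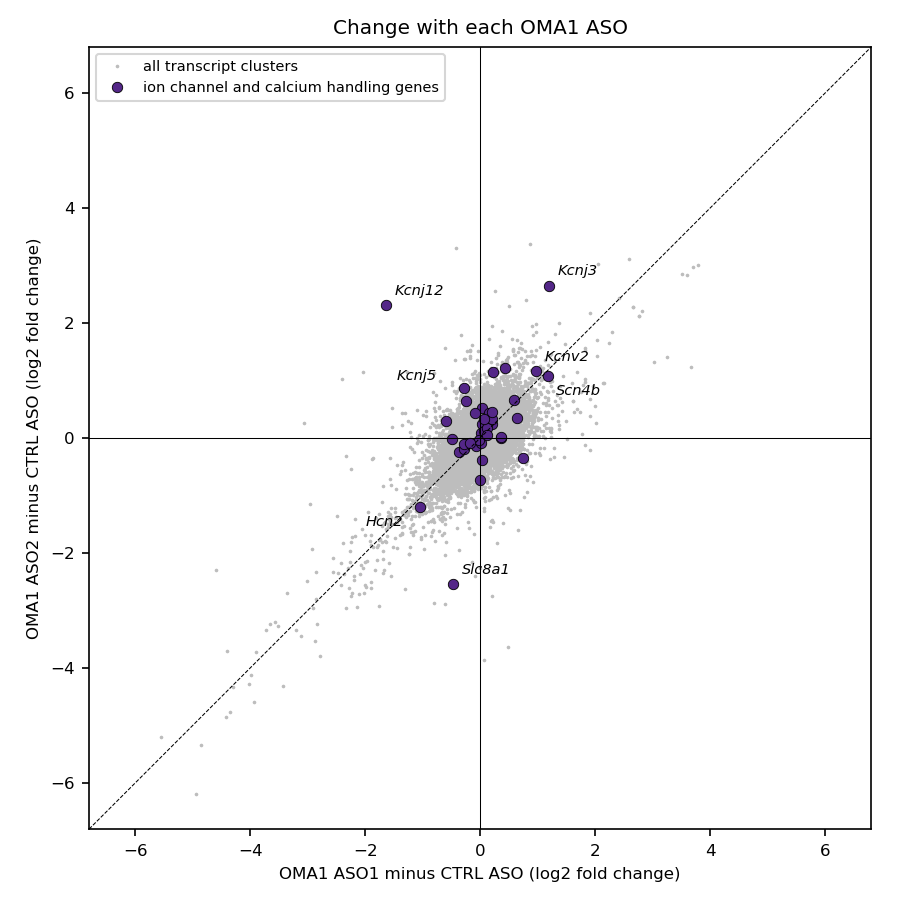
Log2 difference from CTRL ASO of each of the 38 genes with OMA1 ASO1 (x axis) and OMA1 ASO2 (y axis), which share the CTRL ASO arrays; grey points are all clusters and the dashed line marks equal differences. Most genes lie near 0 on both axes, Kcnj3, Kcnv2, Scn4b and Hcn2 lie on the same side of 0 with both oligomers, and Kcnj12 lies on opposite sides.

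Beyond the 39 genes, 69 of 80 further ion channel and transporter genes and 62 of 75 further calcium-handling genes were measured. Of the ion channel genes, 38 were below background on all arrays and 1 was called, Gjc1, a connexin gene, which was higher with OMA1 ASO2 (log2 1.45, adjusted p = 0.00316 from limma), at 9.27 to 9.77, against 7.61 to 8.64 with CTRL ASO, and averaged 8.74 ± 0.22 with OMA1 ASO1 (SD, n = 5). Of the calcium-handling genes, 17 were below background on all arrays and 1 was called, Hrc, the histidine-rich calcium-binding protein of the store, which was higher in the pooled comparison (1.07, adjusted p = 0.00263), at 15.43 to 15.88 with OMA1 ASO2, 15.37 to 15.86 with OMA1 ASO1 and 14.03 to 15.27 with CTRL ASO. Over all clusters, 0.761% were called with OMA1 ASO2 and 1.04% in the pooled comparison. With 1 call each among 69 and 62 genes, the calls describe these genes and not their lists. At an adjusted p under 0.05, Panx1 was lower in the pooled comparison (-0.83, adjusted p = 0.034), below background on all arrays, and Cacnb1, the L-type channel subunit best known from skeletal muscle, was lower with OMA1 ASO2 (-1.41, adjusted p = 0.0152).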

How the data were processed

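RNA of mouse hearts was hybridized to Clariom S Mouse arrays, 1 array per mouse. The deposited log2 signals were computed by the authors in Transcriptome Analysis Console at default settings. Its gene-level method, SST-RMA, removes background, brings all arrays to the same distribution and combines the probes of a cluster into 1 value, which evens out differences in overall signal between arrays. The build of the array's annotation was not given in the sources used here. From these values 6640 control probe sets were left out and 22206 clusters were kept without a filter. limma 3.58.1 (lmFit and eBayes, R 4.3.3) gave the differences, the pooled comparison as 2 groups and the others from 3 group means with a shared spread, and adjusted by Benjamini-Hochberg over all clusters. The fit was tested on simulated data. P-values from the 3 group means rest on the spread between mice within a treatment, and precision is limited by how many arrays each group has. In the pooled comparison a difference between the oligomers also counts as spread. For Kcnj12 its standard error was 0.78 on the log2 scale, against 0.29 with OMA1 ASO1 and 0.33 with OMA1 ASO2.

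The members, gene lists and comparisons were chosen with earlier results of these data known. Genes called at an adjusted p under 0.01, and Kcnj12, are given on every array. Those under 0.05, and the main genes of contraction and repolarization, are named with their values, as are called genes of the wider lists. Kcnh2, Abcc9, Cacna1h and other genes outside this rule were picked after seeing their values. Alternatives covered other moderation, filtering, normalization, weights, thresholds, samples and covariates, a replicate block and leaving out each array. The runs on the 9 arrays with Y-linked genes below background were added after the data were seen. Promoters and motifs come from the RefSeq table of GRCm38.p6.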

Additional observations from a re-analysis of the deposited data

Results flagged for a closer look

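Among 76 groups of 5 arrays checked for a single value far from the rest, 3 were found, and chance alone gives about 1 in 20. Kcnj2 was 7.74 on OMA1 ASO1 replicate 5, while the other 4 OMA1 ASO1 arrays were at 9.75 to 10.29. Hcn4 was 5.82 on OMA1 ASO1 replicate 4, while the other arrays of its group were at 4.82 to 4.93, all below background. Pln was 19.22 on OMA1 ASO1 replicate 4, while the others were at 19.49 to 19.51.

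Kcnj12 responded differently to the oligomers. The log2 difference of OMA1 ASO2 over OMA1 ASO1 was 3.94 in the limma fit (adjusted p = 2.2e-05). Every OMA1 ASO2 array was above and every OMA1 ASO1 array below the CTRL ASO arrays. The difference was known from earlier results of these same arrays, so its p-value describes it and is no separate test.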

How the results depend on the processing

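No result changed direction under any of the alternatives. Kcnj12 between the oligomers, Kcnj3 and Slc8a1 with OMA1 ASO2 and the pooled difference of Kcnv2 kept their calls under each one that gave a value, and the difference of Kcnj12 between the oligomers was 3.64 to 4.29 without any 1 array. For OMA1 ASO against CTRL ASO, 506 clusters passed at an adjusted p under 0.05 and 128 were called on the arrays with Y-linked genes below background, against 230, and 2 members were called on those arrays, against 4. For OMA1 ASO1, 412 clusters and 5 members passed at 0.05, and 108 clusters and 1 member were called on those arrays, against 204 and 3. For OMA1 ASO2, 355 clusters passed at 0.05 and 107 were called with the Y-linked genes as a covariate, against 169. Between the oligomers, 51 clusters and 4 members passed at 0.05, 39 clusters and 4 members were called with a mean-variance trend and robust fitting, and 9 clusters were called with only the groups compared, against 23 and 1. Without 1 array each, clusters called were 142 to 317 for both oligomers, 140 to 286 for OMA1 ASO1, 96 to 269 for OMA1 ASO2 and 8 to 38 between the oligomers, and members called were 1 to 4 for both oligomers, 0 to 4 for OMA1 ASO1, 3 to 6 for OMA1 ASO2 and 1 to 2 between them. For OMA1 ASO1, 0 members were called when any of CTRL ASO replicates 1, 2 and 4 or OMA1 ASO1 replicates 3 and 4 was left out. The causes of these changes were not tested. Leaving out an array changes both how many arrays remain and which ones.

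The labels do not say whether the replicate numbers pair the arrays. Residuals of the 11 same-numbered pairs correlated at -0.11 to 0.18, and an array correlated best with its own number in 7 of 22 cases. These values do not settle the question, as no rate for unpaired arrays was computed. A replicate block also leaves less data to estimate the spread, and its part in the lost calls was not tested. With the number as a replicate block, 2 members were called for both oligomers and 14 clusters between them, and the calls of Kcnj3 (adjusted p = 0.0259 from limma) and Scn4b (0.0127) with both oligomers, Kcnj12 with OMA1 ASO1 (0.013) and Kcnv2 with OMA1 ASO2 (0.0107) were lost.

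Each of the 38 genes had 1 cluster, so averaging over clusters gave no separate value. Signals near background and near the top of the range (Atp2a2 and Pln) limit what could be seen.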

Other observations

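Other cell types were read only through their marker lists. Of 9 measured macrophage markers, 1 was called, Cd163, a scavenger receptor of resident macrophages, which was at 4.98 to 5.40 with OMA1 ASO2, 4.28 to 4.99 with OMA1 ASO1 and 6.36 to 7.27 with CTRL ASO (pooled log2 -2.04, adjusted p = 5.68e-06 from limma). Over all clusters, 1.04% were called in the pooled comparison. For Cd163, all OMA1 ASO arrays were below background and all CTRL ASO arrays above it. The summed macrophage signal did not follow Cd163, at 13.15 to 13.20 with OMA1 ASO2, 10.72 to 13.19 with OMA1 ASO1 and 11.63 to 12.54 with CTRL ASO. Tubb3, a neuronal tubulin gene, was lower in the pooled comparison (-0.93, adjusted p = 0.00804) at signals below background on all arrays.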
